A study of Mus musculus with 20 samples.

Results

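The nuclear genes for subunits of the oxidative phosphorylation complexes were followed in maps of H3K27ac, the acetylated form of lysine 27 on histone H3 that lies at promoters and enhancers in use. Members were the protein-coding genes of the mouse GRCm38 annotation whose symbols begin with the usual subunit stems for complexes I to V, with the Ndufaf assembly factors left out. This gave 88 of 21887 protein-coding genes, of which 39 belong to complex I, 4 to complex II, 8 to complex III, 20 to complex IV and 17 to complex V. The 20 members of complex IV include 8 forms that are restricted to certain tissues or conditions, and the 39 of complex I include 2 Ndufb4-like copies. A few known subunits, such as Cyc1 of complex III, carry other symbols and fall outside the rule.

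The study sequenced DNA that an H3K27ac antibody pulled down from RAW264.7 cells, a mouse macrophage-like line that RANKL, the cytokine that drives osteoclast formation, turns towards osteoclasts. One group was left untreated and another received 50 ng/ml RANKL. A further group received the same RANKL dose plus 500 nM I-BET, and the last received 500 nM I-BET without RANKL, each for 4 h. I-BET blocks the BET bromodomain proteins, which bind acetylated histones. The first 3 groups have 3 libraries each and I-BET alone has 1, numbered replicate 3. All groups share this 1 cell line, although the labels give bone marrow as its source, and no label says that replicates were separate cultures. The spread between replicates, which is all that a p-value measures here, may therefore be technical. Of 20 libraries, the 10 immunoprecipitated ones each came with 1 peak list, and the 10 input libraries were not analysed here.

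The lists contain no read counts, so sequencing depth is unknown, and they differ greatly in length. RANKL replicate 2 listed 141905 peaks covering 184.6 Mb, RANKL+I-BET replicate 2 listed 6041 peaks covering 3.44 Mb, and the other 8 lists had 9893 to 17794 peaks. Of 10 macrophage markers, 8 (among them Csf1r, Spi1 and Cd68) had a peak at a gene end in all 6 libraries numbered 1 or 3 of the 3 groups. RANKL replicate 2 also had peaks at 10 of 10 lymphocyte, 7 of 8 skeletal and heart muscle, 5 of 8 fibroblast and osteoblast, 4 of 5 testis and 4 of 6 liver and other tissue markers. Outside that library the markers of muscle, fibroblasts, testis, liver and other tissues had none, and the lymphocyte markers 0 to 2. Replicates numbered 2 are therefore shown apart below, and comparisons rest on replicates 1 and 3.

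Oxidative phosphorylation moves electrons from NADH and succinate through complexes I to IV to oxygen, pumping protons across the inner mitochondrial membrane, and complex V, the ATP synthase, lets the protons flow back to make ATP. A small set of subunits is encoded in mitochondrial DNA, while the genes studied here lie in the nucleus, where their promoters are typically rich in CpG and are known targets of NRF1, GABP, YY1 and oestrogen-related receptors. Osteoclasts hold many mitochondria, and the formation of these cells from macrophages is known to depend on mitochondrial respiration.

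Promoter sequences introduce the contrasts that recur in the peak data. The sequences are RefSeq windows of GRCm38.p6 that run from 250 bases before to 50 bases after a start site, printed on the strand of the gene. Capitals mark matches to motifs searched on both strands, namely GGGCGG (SP1), CCAAT (NF-Y), CCGGAAG (ETS factors such as GABP), GCATGCG (part of an NRF1 site), AAGATGG (YY1) and AAGGTCA (the core site of oestrogen-related receptors). None of the windows shown held a match to the last 3. A match describes letters and shows no binding. The first pair, Ndufv3 and Ndufa1, are the members whose peaks were present in RANKL libraries and absent from untreated ones. Ndufv3 lies at chr17:31519865-31520164 on the plus strand and holds SP1 and NF-Y matches. Ndufa1 lies at chrX:37191189-37191488 on the minus strand and holds 1 SP1 match.
Ndufv3: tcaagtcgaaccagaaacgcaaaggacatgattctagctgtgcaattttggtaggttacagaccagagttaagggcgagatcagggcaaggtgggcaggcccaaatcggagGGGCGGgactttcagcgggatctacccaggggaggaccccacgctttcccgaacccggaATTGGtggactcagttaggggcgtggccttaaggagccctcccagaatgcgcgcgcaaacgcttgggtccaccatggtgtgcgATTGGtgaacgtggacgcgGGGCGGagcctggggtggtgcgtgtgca
Ndufa1: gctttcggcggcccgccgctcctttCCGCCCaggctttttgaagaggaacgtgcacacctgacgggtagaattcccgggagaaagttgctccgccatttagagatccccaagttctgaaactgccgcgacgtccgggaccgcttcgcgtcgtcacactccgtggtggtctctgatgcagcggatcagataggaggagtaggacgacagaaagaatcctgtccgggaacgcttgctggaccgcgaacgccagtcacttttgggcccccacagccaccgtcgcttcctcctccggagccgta

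The other promoters pair the general form of a complex IV subunit with its tissue-limited counterpart. Cox8a (chr19:7217567-7217866, minus strand) is expressed widely, while Cox8b (chr7:140900397-140900696, minus strand) is the heart and skeletal muscle form. The Cox8a window held 19 CpG dinucleotides, against 2 in the Cox8b window.
Cox8a: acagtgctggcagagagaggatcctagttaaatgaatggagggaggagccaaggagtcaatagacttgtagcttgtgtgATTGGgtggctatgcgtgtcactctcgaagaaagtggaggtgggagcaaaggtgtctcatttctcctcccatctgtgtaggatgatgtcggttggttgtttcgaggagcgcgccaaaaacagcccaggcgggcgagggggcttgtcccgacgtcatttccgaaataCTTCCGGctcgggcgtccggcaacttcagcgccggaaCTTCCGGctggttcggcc
Cox8b: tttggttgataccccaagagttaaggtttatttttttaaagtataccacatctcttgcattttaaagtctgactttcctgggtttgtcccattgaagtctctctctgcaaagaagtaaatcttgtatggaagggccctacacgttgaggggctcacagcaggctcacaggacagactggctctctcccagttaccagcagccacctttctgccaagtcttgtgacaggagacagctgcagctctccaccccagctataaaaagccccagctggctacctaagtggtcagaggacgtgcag

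Cox6b1 (chr7:30626065-30626364, minus strand) is the general form and Cox6b2 (chr7:4753045-4753344, minus strand) the testis form. Their windows held 17 and 10 CpG dinucleotides. Both held 3 CCAAT matches, and the ETS match was in Cox6b1.
Cox6b1: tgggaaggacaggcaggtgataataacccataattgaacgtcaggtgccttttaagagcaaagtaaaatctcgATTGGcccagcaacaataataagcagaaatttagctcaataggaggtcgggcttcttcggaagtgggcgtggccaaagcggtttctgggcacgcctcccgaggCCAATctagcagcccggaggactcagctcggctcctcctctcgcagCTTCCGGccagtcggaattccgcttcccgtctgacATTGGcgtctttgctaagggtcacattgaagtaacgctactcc
Cox6b2: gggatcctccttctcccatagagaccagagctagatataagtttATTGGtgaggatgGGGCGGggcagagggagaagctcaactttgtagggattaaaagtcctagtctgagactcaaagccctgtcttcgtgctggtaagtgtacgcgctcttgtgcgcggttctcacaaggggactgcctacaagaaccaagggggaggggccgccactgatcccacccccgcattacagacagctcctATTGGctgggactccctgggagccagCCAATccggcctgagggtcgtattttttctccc

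Cox7a2 (chr9:79759804-79760103, minus strand) is the general form and Cox7a1 (chr7:30183921-30184220, plus strand) the heart and muscle form. Their windows held 20 and 7 CpG dinucleotides.
Cox7a2: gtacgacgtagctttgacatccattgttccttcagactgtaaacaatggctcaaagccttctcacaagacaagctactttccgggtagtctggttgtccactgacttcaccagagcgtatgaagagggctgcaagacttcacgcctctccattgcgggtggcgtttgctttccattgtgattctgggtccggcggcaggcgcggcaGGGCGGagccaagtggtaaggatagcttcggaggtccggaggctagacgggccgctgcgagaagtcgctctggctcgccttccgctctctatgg
Cox7a1: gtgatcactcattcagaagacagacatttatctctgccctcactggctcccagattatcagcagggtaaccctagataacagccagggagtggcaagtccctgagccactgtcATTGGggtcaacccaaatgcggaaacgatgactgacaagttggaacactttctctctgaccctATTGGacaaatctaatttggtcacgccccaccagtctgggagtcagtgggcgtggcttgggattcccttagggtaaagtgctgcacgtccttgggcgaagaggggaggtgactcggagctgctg

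Most subunit genes carried H3K27ac at a gene end in every condition. A gene was taken to hold a peak where a listed peak lay within 1 kb of either annotated end. Untreated libraries 1, 2 and 3 held 69, 57 and 70 of the 88 members. RANKL libraries held 76, 85 and 75, RANKL+I-BET libraries 74, 42 and 69, and the I-BET library 70. In the same order the share of members was 78.4%, 64.8% and 79.5% in untreated cells, 86.4%, 96.6% and 85.2% with RANKL, 84.1%, 47.7% and 78.4% with RANKL+I-BET, and 79.5% with I-BET. Over all protein-coding genes the shares were 32.5%, 27.03% and 37.7%, then 41.5%, 74.0% and 41.8%, then 41.7%, 17.3% and 36.7%, and 34.8%. The members' share was above that of all genes in each of the 10 lists as deposited. With the lists cut to an equal covered length it was below in RANKL replicate 2, at 1.14% against 1.74%.

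**Figure D1:**
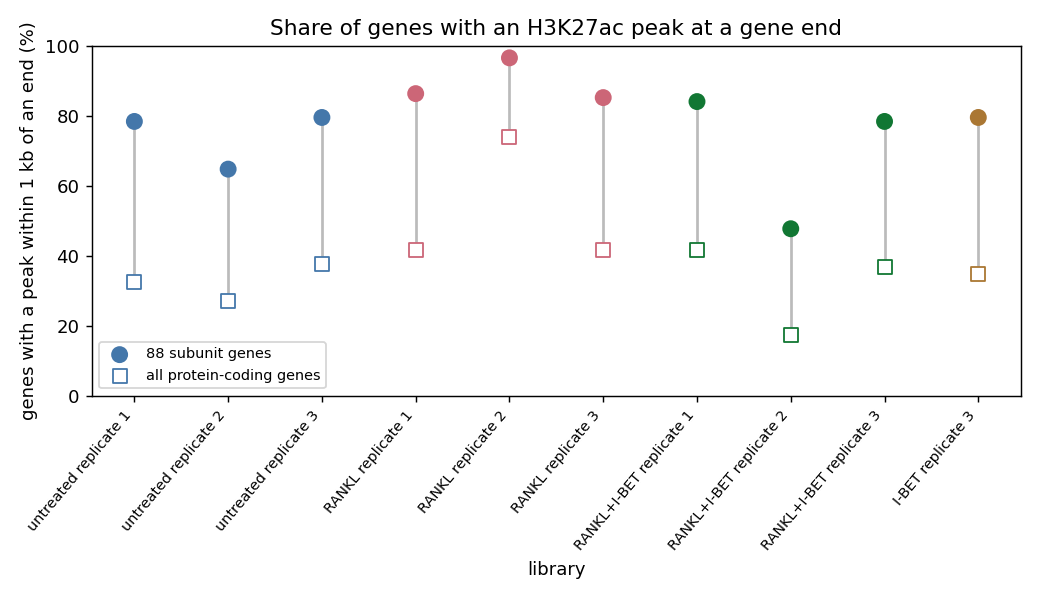
Share of genes with an H3K27ac peak within 1 kb of a gene end (percent, vertical axis) in each of the 10 libraries, with filled circles for the 88 subunit genes and open squares for 21887 protein-coding genes. The subunit genes lie above all genes in each library, from 47.7% against 17.3% in RANKL+I-BET replicate 2 to 96.6% against 74.0% in RANKL replicate 2.

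Over replicates 1 and 3, untreated libraries held 69.5 ± 0.707 members (mean ± SD, n = 2), RANKL libraries 75.5 ± 0.707 (n = 2) and RANKL+I-BET libraries 71.5 ± 3.54 (n = 2). The RANKL and untreated values did not overlap, and the RANKL+I-BET values of 74 and 69 reached down to those of untreated cells. All genes moved in the same order, at 35.1% ± 3.68, 41.6% ± 0.165 and 39.2% ± 3.50 (SD, n = 2 each). An exact permutation test (two-sided) of 2 libraries against 2 allows no p under 0.333, and these counts were not tested.

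The set of held genes was much the same from library to library. In a bulk library, a peak carried by fewer cells and a weaker peak in all cells cannot be told apart. In the 6 libraries numbered 1 or 3 of the 3 groups, 63 of 88 members (71.6%) held a peak in all 6, against 28.5% of all genes. No peak was found in any of the 6 for 12 members (13.6%), against 55.5% of all genes. The remaining 13 members held a peak in 2 to 5 of the 6. Over all 9 libraries of the 3 groups, 33 members (37.5%) held a peak in all 9, against 13.8% of genes. A further 18 members were missing from RANKL+I-BET replicate 2 alone, which is the shortest list, and 4 (Cox5b, Uqcrq, Ndufb4 and Atp5g3) from untreated replicate 2 alone.

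Subunit gene peaks were of ordinary size. The median width of the members' widest gene-end peaks was 895, 557 and 991.5 bp in untreated libraries, against 832, 647 and 1173 bp over all genes with such a peak. With RANKL it was 1122, 1810 and 1164 bp against 1244, 2024 and 1325.5 bp, and with RANKL+I-BET 1032, 447.5 and 1102 bp against 1216, 470 and 1229 bp. The members' median was below that of all genes in 9 of the 10 lists, with untreated replicate 1 as the exception, and in the I-BET list it was 947 against 1175.5 bp. The fold enrichment that the authors' peak caller gave each peak, which is used here only within a list, had a median of 2.46 for members and 2.41 for all genes in untreated replicate 3. The members' median fold stood between the 43.5 and the 65.5 percentile of all genes' peaks over the 10 lists. The width test below covers 7740 genes and 71 members. Both RANKL values in bp of replicates 1 and 3 exceeded both untreated ones for 41.7% of these genes and 25 of these members. Both RANKL+I-BET values lay below both RANKL ones for 22.9% of these genes and 20 of these members. Separations in bp given below stand beside these shares.

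**Figure D2:**
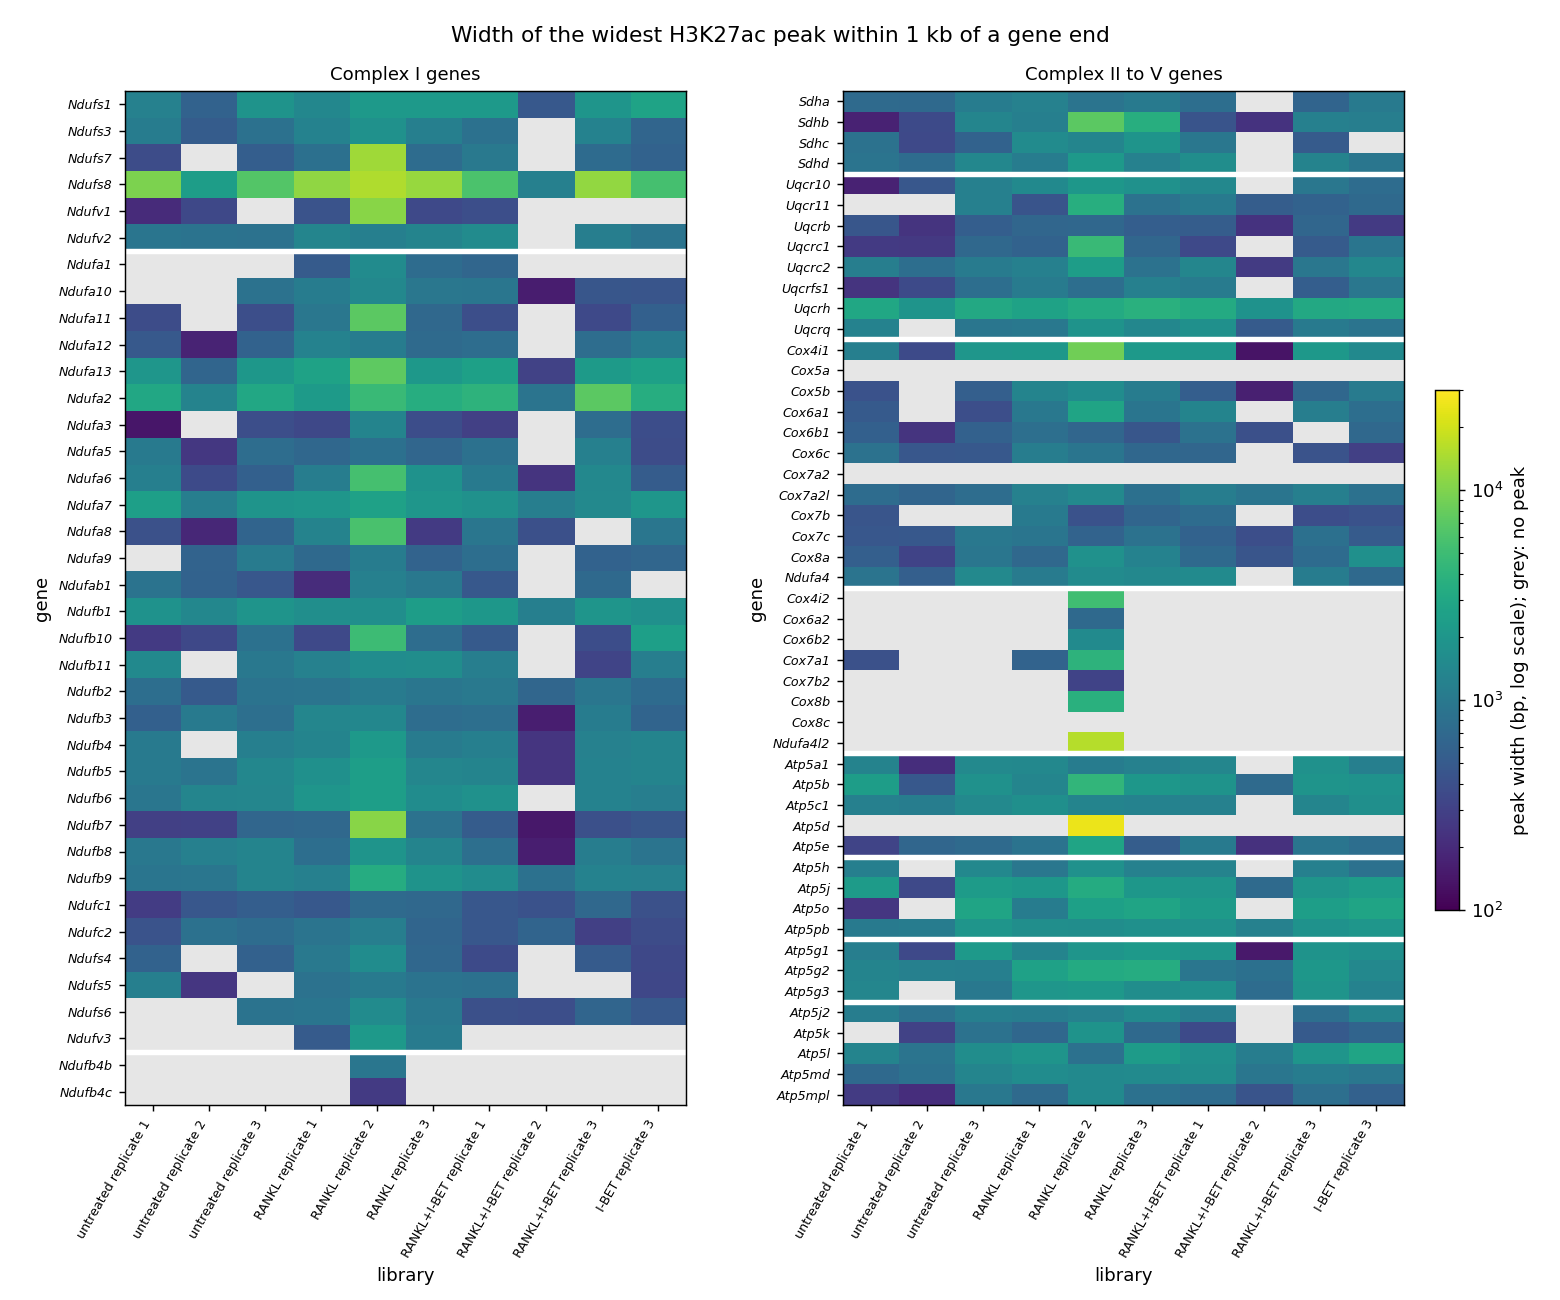
Width in bp (colour, log scale) of the widest H3K27ac peak within 1 kb of a gene end, for the members shown (rows, with white lines between subunit classes) in each library (columns), with grey where no peak was listed. The block of tissue-limited complex IV forms is grey outside RANKL replicate 2 except for Cox7a1, and Ndufs8 and Uqcrh are wide in nearly all libraries.

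The catalytic core of complex I was held in nearly all libraries. Of its 7 nuclear genes, untreated libraries held 7, 6 and 6, RANKL libraries 7, 7 and 7, and RANKL+I-BET libraries 7, 3 and 6. Ndufs8, an iron-sulfur subunit, had the widest peaks of the members by mean width over the 3 untreated libraries, at 9809, 2389 and 6520 bp untreated, 11736, 15295 and 12363 bp with RANKL, 5961, 1195 and 11824 bp with RANKL+I-BET, and 5622 bp with I-BET. In bp RANKL replicates 1 and 3 were above the untreated ones, while the RANKL+I-BET values ranged across both. Relative to the library medians, replicates 1 and 3 had log2 values of 3.05 and 2.02 untreated and 2.69 and 2.70 with RANKL, and so overlapped. Ndufs8 (gene at chr19:3908863-3912774, minus strand) shared this peak with the neighbouring Tcirg1, which encodes a subunit of the proton pump that osteoclasts use to acidify bone. In RANKL replicate 1 a single peak ran from 3903451 to 3915186 and so spanned the whole of Ndufs8, whereas in untreated replicate 3 it ran from 3903056 to 3909575 and touched only the end of Ndufs8. The width recorded for Ndufs8 therefore depends on whether neighbouring stretches were joined by the caller.

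Ndufs1, the largest iron-sulfur subunit, had 1238, 603 and 1882 bp untreated, 1409, 2192 and 2129 bp with RANKL, 2158, 476 and 1949 bp with RANKL+I-BET, and 2725 bp with I-BET. Ndufv1, which binds NADH and flavin, was the least regular core gene, with peaks of 201 and 345 bp in untreated replicates 1 and 2 and none in replicate 3. RANKL libraries had 429, 10780 and 350 bp, RANKL+I-BET replicate 1 had 393 bp, and the other RANKL+I-BET libraries and the I-BET library had none. The RANKL libraries lay above the untreated ones for Ndufv1, narrowly between the closest pair, and the RANKL+I-BET libraries ranged across both. Ndufs7 lacked a peak in untreated replicate 2 and RANKL+I-BET replicate 2 and had 376 to 1012 bp elsewhere, apart from 13405 bp in RANKL replicate 2. Ndufs3 and Ndufv2 lacked one in RANKL+I-BET replicate 2 only.

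Accessory subunits of complex I, which surround the core and are needed for its assembly or stability, held peaks for 25, 21 and 27 of 30 genes in untreated libraries. RANKL libraries held all 30 in each replicate, RANKL+I-BET libraries 29, 17 and 26, and the I-BET library 27. The class was thus marked at 21 or more of its genes everywhere except in RANKL+I-BET replicate 2.

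Ndufv3, a small accessory subunit of the NADH-binding module, had no peak in the 3 untreated libraries, peaks of 519, 2121 and 1070 bp with RANKL, and no peak in the 3 RANKL+I-BET libraries or with I-BET. The RANKL libraries were thus separate from all others. In RANKL replicates 1 and 3 the peaks lay at 31520195 to 31520713 and at 31519736 to 31520805 on chromosome 17, beside or across the start site at 31520115. They were weak peaks within their lists, with a fold enrichment of 2.42 and 2.30 and a -log10 q of 2.10 and 2.65.

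Ndufa1, an X-linked subunit of the membrane arm, likewise had none in untreated cells and 510, 1567 and 750 bp with RANKL. It had 661 bp in RANKL+I-BET replicate 1, none in RANKL+I-BET replicates 2 and 3, and none with I-BET. RANKL and untreated libraries did not overlap, whereas the RANKL+I-BET libraries fell on both sides. Its peaks in RANKL replicates 1 and 3 had a -log10 q of 1.57 and 1.84.

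Other accessory genes lacked a peak in some of the untreated, RANKL+I-BET or I-BET lists and in none of the RANKL lists. Ndufs5 had 1160 and 248 bp in untreated replicates 1 and 2 and none in replicate 3, then 865, 1019 and 886 bp with RANKL, 832 bp in RANKL+I-BET replicate 1 alone, and 339 bp with I-BET. Ndufa10 and Ndufs6 had a peak in untreated replicate 3 only (851 and 887 bp) and in all RANKL and RANKL+I-BET libraries. For Ndufa10 these were 1094, 1434 and 957 bp with RANKL and 942, 158 and 456 bp with RANKL+I-BET. For Ndufs6 they were 918, 1554 and 977 bp, and 407, 397 and 637 bp. Untreated replicate 3 thus separates both genes from the gained set described below.

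Ndufa9, which sits near the quinone site, had no peak in untreated replicate 1 or RANKL+I-BET replicate 2, and 604 to 1086 bp elsewhere. Ndufab1, the mitochondrial acyl carrier protein, had 870, 597 and 468 bp untreated, 207, 1187 and 986 bp with RANKL, 480, 0 and 700 bp with RANKL+I-BET, and none with I-BET. Ndufa8 had none in RANKL+I-BET replicate 3 and 190 to 5783 bp elsewhere. Ndufa3, Ndufa11, Ndufs4 and Ndufb11 lacked a peak in untreated replicate 2 and RANKL+I-BET replicate 2. For Ndufa3 the widths were 141 and 391 bp in untreated replicates 1 and 3, 347 and 389 bp with RANKL, and 294 and 772 bp with RANKL+I-BET. Ndufa12, Ndufb10, Ndufb6 and Ndufa5 lacked one in RANKL+I-BET replicate 2 alone. These absences fell mostly in untreated replicate 2 and RANKL+I-BET replicate 2, the lists with the fewest peaks. The Ndufb6 peak counted in untreated replicate 3, at 40268510 to 40269870, lay at the gene end away from the start site. Within 1 kb of its start site Ndufb6 had no peak in RANKL+I-BET replicates 2 and 3 or with I-BET. All untreated and RANKL libraries and RANKL+I-BET replicate 1 had a peak there.

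By mean width over the 3 untreated libraries, Ndufa2 had the widest accessory peaks, at 3055, 1286 and 3028 bp untreated, 2253, 4724 and 3460 bp with RANKL, 4000, 895 and 7099 bp with RANKL+I-BET, and 3463 bp with I-BET. Ndufa7 came next in untreated cells, at 2503, 1141 and 1902 bp untreated, 2006, 2635 and 1996 bp with RANKL, and 1781, 1152 and 1452 bp with RANKL+I-BET. At the narrow end, Ndufb7 had 293, 298 and 661 bp untreated, 685, 10765 and 866 bp with RANKL, and 524, 145 and 404 bp with RANKL+I-BET. In Ndufb7 the RANKL libraries were the widest in bp at the gene ends, by a small margin in replicates 1 and 3. Within 1 kb of the Ndufb7 start site the widths were 293, 298 and 661 bp untreated and 587, 4785 and 866 bp with RANKL. At the start site the 2 groups thus overlapped. Relative to the library medians the gene-end difference between RANKL and untreated in replicates 1 and 3 was 0.0050 on the log2 scale. The Ndufb4-like copies Ndufb4b and Ndufb4c had a peak in RANKL replicate 2 only, of 929 and 261 bp, while Ndufb4 itself was held in 8 of the 9 libraries of the 3 groups.

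Succinate dehydrogenase, complex II, which feeds electrons from the citric acid cycle into the chain, held a peak at all 4 genes in the untreated and RANKL libraries and in RANKL+I-BET replicates 1 and 3. RANKL+I-BET replicate 2 held 1 of 4, Sdhb. Sdha, the flavoprotein, had 721, 700 and 1099 bp untreated, 1236, 902 and 1036 bp with RANKL, 794, 0 and 631 bp with RANKL+I-BET, and 1049 bp with I-BET. Sdhb, the iron-sulfur subunit, varied most, with 171, 358 and 1341 bp untreated, 1179, 7067 and 3553 bp with RANKL, 443, 232 and 1203 bp with RANKL+I-BET, and 1155 bp with I-BET. The untreated and RANKL ranges of Sdhb overlapped. Sdhc, a membrane anchor, had 856, 356 and 602 bp untreated, 1570, 1350 and 1914 bp with RANKL, 950, 0 and 518 bp with RANKL+I-BET, and no peak with I-BET. In bp all 3 RANKL libraries exceeded the other 7 for Sdhc (RANKL above untreated in replicates 1 and 3: 41.7% of tested genes). Relative to the library medians, replicate 1 had log2 values of 0.126 with RANKL and 0.123 untreated. Sdhd, the other anchor, had 906, 751 and 1397 bp untreated, 1105, 2175 and 1213 bp with RANKL, 1623, 0 and 1275 bp with RANKL+I-BET, and 946 bp with I-BET.

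Complex III, which passes electrons from ubiquinol to cytochrome c, held 7, 6 and 8 of 8 genes untreated, 8 in each RANKL library, and 8, 5 and 8 with RANKL+I-BET. Uqcrh, the acidic hinge protein, had wide peaks, at 2973, 1900 and 3119 bp untreated, 2652, 3244 and 3756 bp with RANKL, 3271, 1832 and 3142 bp with RANKL+I-BET, and 3235 bp with I-BET. Its groups overlapped. Uqcrfs1, the Rieske iron-sulfur protein, had 237, 361 and 792 bp untreated, 1061, 777 and 1198 bp with RANKL, 1081, 0 and 548 bp with RANKL+I-BET, and 962 bp with I-BET. Uqcrc1, a core protein, had 264, 258 and 692 bp untreated, 596, 4748 and 653 bp with RANKL, and 351, 0 and 510 bp with RANKL+I-BET. Uqcrb was narrow throughout, with 461, 234 and 554 bp untreated, 659, 678 and 552 bp with RANKL, and 537, 229 and 662 bp with RANKL+I-BET. Uqcr11 had none in untreated replicates 1 and 2 and 1187 bp in replicate 3, then 439, 3589 and 868 bp with RANKL and 1037, 532 and 603 bp with RANKL+I-BET. Uqcr10 ran from 174 bp in untreated replicate 1 to 2034 bp in RANKL replicate 2 and lacked a peak in RANKL+I-BET replicate 2. In these small subunits the lowest value of each, or the missing peak, came from untreated replicates 1 and 2 or from RANKL+I-BET replicate 2. Low widths were also seen elsewhere, with 439 bp for Uqcr11 in RANKL replicate 1 and 265 bp for Uqcrb with I-BET.

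Complex IV, cytochrome c oxidase, separated into general and tissue-limited genes. The 12 general genes held peaks in 10, 7 and 9 cases untreated, 10 in each RANKL library, 10, 6 and 9 with RANKL+I-BET, and 10 with I-BET. The 8 tissue-limited genes held 1, 0 and 0 untreated, 1, 7 and 0 with RANKL, and none in the 3 RANKL+I-BET libraries or with I-BET. Cox4i1, the general form of subunit 4, had 1165, 358 and 1991 bp untreated, 2069, 8748 and 2126 bp with RANKL, 1994, 136 and 2105 bp with RANKL+I-BET, and 1489 bp with I-BET. Cox4i2, its counterpart in lung and other oxygen-sensing tissue, had a peak in RANKL replicate 2 alone, of 5240 bp. The same held for Cox6a2 (709 bp), the muscle form beside the general Cox6a1, for Cox6b2 (1525 bp) and for Cox8b (3715 bp). It also held for Cox7b2 (316 bp), and for Ndufa4l2 (15962 bp), a form induced in low oxygen. Over its whole gene, Ndufa4l2 also had a peak of 308 bp in untreated replicate 1. Cox8c had no peak in any library.

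Cox7a1 was the one tissue-limited gene with a gene-end peak elsewhere, of 408 bp in untreated replicate 1, 609 bp in RANKL replicate 1 and 4011 bp in RANKL replicate 2. Both of the first peaks lay across its start site at 30184171. The other 7 libraries had none, so both groups hold libraries with and without it. RANKL replicate 2 also held the markers of muscle and testis given above, and the part of that library's list length in these peaks was not tested.

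Among the general forms, Cox5b had 418, 0 and 556 bp untreated, 1319, 1607 and 1103 bp with RANKL, 548, 166 and 671 bp with RANKL+I-BET, and 1068 bp with I-BET. In bp every RANKL library exceeded the untreated and the RANKL+I-BET libraries for Cox5b (RANKL above untreated in replicates 1 and 3: 41.7% of tested genes). Cox6a1 had 508, 0 and 396 bp untreated, 974, 2771 and 909 bp with RANKL, and 1297, 0 and 1144 bp with RANKL+I-BET. Cox6b1 lacked a peak in RANKL+I-BET replicate 3 and had 235 to 855 bp elsewhere. Cox7b, which is X-linked, had 452 bp in untreated replicate 1 only, 1021, 423 and 643 bp with RANKL, 759, 0 and 388 bp with RANKL+I-BET, and 425 bp with I-BET. Cox7b overlapped between the groups. Cox7a2l, which is known to join complexes III and IV into supercomplexes, had 754, 642 and 762 bp untreated, 1221, 1451 and 830 bp with RANKL, 1121, 921 and 1175 bp with RANKL+I-BET, and 837 bp with I-BET. In bp the RANKL, RANKL+I-BET and I-BET libraries all lay above the untreated ones for Cox7a2l (RANKL above untreated in replicates 1 and 3: 41.7% of tested genes). Relative to the library medians the difference with RANKL was -0.14 on the log2 scale. The values of replicates 1 and 3 were -0.14 and -0.57 with RANKL and 0.010 and -0.45 untreated, and so overlapped. Cox8a had 562, 314 and 935 bp untreated, 680, 1810 and 1243 bp with RANKL, 707, 453 and 730 bp with RANKL+I-BET, and 1762 bp with I-BET. Ndufa4, named for complex I but now known as a complex IV subunit, had 895, 557 and 1479 bp untreated, 1067, 1558 and 1422 bp with RANKL, 1549, 0 and 1102 bp with RANKL+I-BET, and 704 bp with I-BET. Cox6c lacked a peak in RANKL+I-BET replicate 2 only.

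Absence at the gene end meant something else for Cox5a, Cox7a2 and the ATP synthase gene Atp5d. Their annotated genes begin some distance before the RefSeq start site, so the window at the gene end missed the promoter. Measured within 1 kb of the RefSeq start site, Cox5a had peaks of 2156, 1151 and 1694 bp untreated, 1543, 1411 and 3034 bp with RANKL, 2739, 1143 and 2866 bp with RANKL+I-BET, and 1957 bp with I-BET. Cox7a2 had 862, 256 and 742 bp untreated, 997, 760 and 1536 bp with RANKL, 949, 133 and 1519 bp with RANKL+I-BET, and 902 bp with I-BET. Both promoters were marked in all 10 libraries. Atp5d had 796, 731 and 586 bp untreated, 653, 25512 and 1808 bp with RANKL, 454, 0 and 493 bp with RANKL+I-BET, and 1909 bp with I-BET. Of the 12 members with no gene-end peak in the 6 libraries, these 3 were thus held at their start sites in all 6, and the other 9 were tissue-limited forms and Ndufb4-like copies. Among the 9, Ndufa4l2, Cox4i2, Cox6a2, Cox8c and Ndufb4c had no RefSeq start-site record and could not be measured there. The start-site measure was chosen after seeing these values.

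The ATP synthase, complex V, held 15, 13 and 16 of 17 genes untreated, 16, 17 and 16 with RANKL, 16, 10 and 16 with RANKL+I-BET, and 16 with I-BET. Atp5a1, the alpha subunit of the catalytic head, had 1295, 211 and 1479 bp untreated, 1425, 1090 and 1230 bp with RANKL, 1358, 0 and 1775 bp with RANKL+I-BET, and 1170 bp with I-BET. Atp5b, the beta subunit, had 2380, 482 and 1789 bp untreated, 1349, 4269 and 2029 bp with RANKL, 1893, 724 and 1905 bp with RANKL+I-BET, and 1842 bp with I-BET. In bp the groups overlapped for both. In the peripheral stalk, Atp5o (the subunit that confers oligomycin sensitivity) ran from 245 bp in untreated replicate 1 to 2807 bp in RANKL replicate 3, with no peak in untreated replicate 2 and RANKL+I-BET replicate 2. Atp5h also lacked a peak in these 2 libraries and had 847 to 1776 bp elsewhere. Atp5j was wide, at 2273, 354 and 2275 bp untreated, 2055, 3351 and 2030 bp with RANKL, 1950, 714 and 1976 bp with RANKL+I-BET, and 2346 bp with I-BET. Its peak was shared with Gabpa, whose product is the DNA-binding subunit of GABP, itself a regulator of respiratory genes.

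The c ring, through which the protons pass, is encoded by 3 genes that yield the same mature protein. Atp5g1 had 1136, 355 and 2203 bp untreated, 1321, 1973 and 2120 bp with RANKL, and 1974, 148 and 1856 bp with RANKL+I-BET. Atp5g2 had 1297, 1211 and 1162 bp untreated, 2624, 3303 and 3416 bp with RANKL, 939, 816 and 2054 bp with RANKL+I-BET, and 1421 bp with I-BET. In bp all 3 RANKL libraries exceeded the other 7 for Atp5g2 (RANKL above untreated in replicates 1 and 3: 41.7% of tested genes). Atp5g3 had 1365, 0 and 973 bp untreated, 1987, 2101 and 1621 bp with RANKL, 1734, 745 and 1899 bp with RANKL+I-BET, and 1252 bp with I-BET. Among the membrane subunits, Atp5k lacked a peak in untreated replicate 1 and RANKL+I-BET replicate 2 and had 305 to 1891 bp elsewhere.

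The question of the RANKL comparison was whether the cytokine changes acetylation at these genes within 4 h. At the level of presence, 2 of 88 members were gained, meaning that they held a peak in RANKL replicates 1 and 3 and in neither untreated replicate 1 nor 3. These were Ndufv3 and Ndufa1. Over all genes 394 of 21887 (1.8%) were gained by the same rule, so the count of members was near the background as a share of all members. A gene already held in untreated replicate 1 or 3 could not be gained. These lists held 78.4% and 79.5% of members, against 32.5% and 37.7% of all genes, so fewer members were open to a gain. No member was lost, against 0.032% of genes. With all 3 replicates the same 2 members were gained (background 1.49%), and they were also gained when peaks were sought at RefSeq start sites or over the whole gene. Neither repeat is separate evidence. The replicate 2 lists held a peak at 74.0% of all genes with RANKL and 27.03% untreated, which leaves little room to undo a gain. The other windows counted the same peaks of these 2 genes again. No member was lost with all 3 replicates (background 0.0%).

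When RANKL+I-BET was set against RANKL, 1 member was lost, Ndufv3, against 0.567% of genes, and none was gained, against 0.0274%. With all 3 replicates Ndufv3 was again the 1 member lost (background 0.553%) and none was gained (background 0.0%). The RANKL+I-BET list of replicate 2 held a peak at 17.3% of all genes, which leaves little room to undo a loss. RANKL+I-BET against untreated gained no member (background 0.731%) and lost none (0.064%), and the same held with all 3 replicates (background 0.0366% gained and 0.0137% lost). The 3 comparisons share libraries and are not independent of one another. The gains and the loss rest on peaks with a -log10 q under 3: at a -log10 q of at least 5 a different set was gained (Atp5mpl, Sdha, Ndufv1, Ndufb6, Atp5j2 and Sdhd), and Ndufv3 was neither gained nor lost. With each list reduced to the same covered length, 1 member was gained with RANKL, Atp5k (background 1.14%), and 10 were lost (background 3.16%). With RANKL+I-BET against RANKL, 3 were then lost (Atp5h, Cox6b1 and Sdhd, background 1.59%) and 4 gained (background 2.18%). Neither Ndufv3 nor Ndufa1 was among these.

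The counts over all 3 replicates also moved with single libraries, and so did the background. Without untreated replicate 3, 5 members were gained with RANKL, with Ndufa10, Uqcr11 and Ndufs6 added (background 5.57%). Without RANKL+I-BET replicate 1, 4 members were lost with RANKL+I-BET against RANKL (Ndufv3, Ndufv1, Ndufs5 and Ndufa1, background 3.44%), and without RANKL replicate 3, 2 were lost (Ndufv3 and Cox7a1, background 1.18%).

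Peak width was tested over all genes. The width of the widest gene-end peak was taken as log2 of the width plus 500 bp, centred on each library's median, and fitted with limma in replicates 1 and 3 of the 3 groups. Genes with a mean width of at least 500 bp were tested, which left 7740 genes and 71 of the 88 members. The 17 members left out are Ndufv1, Ndufv3, Ndufa1, Ndufa3, Cox5a, Cox7a2, Atp5d, the 8 tissue-limited forms and the Ndufb4-like copies. The 71 are thus not all members, and Ndufv3 and Ndufa1 have no width test.

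With RANKL against untreated, limma called 0 of 71 members and 0.0% of all genes at an adjusted p under 0.05 by the Benjamini-Hochberg method. The smallest adjusted p was 0.459 over all genes and 0.819 over the members. At an unadjusted p under 0.05 there were 237 wider and 81 narrower genes, and among them 1 member, narrower. Relative to the library medians, 23 members were wider and 48 narrower, with a median difference of -0.15 on the log2 scale, against 0.0050 over all tested genes. Without centring, the members' median was 0.25 and that of all genes 0.41, with 61 members wider and 10 narrower. The sign of the members' median therefore depends on the scaling. With and without centring it lay below that of all genes, but with each list reduced to the same covered length it was -0.0040 over 48 members, 24 wider and 24 narrower, against -0.074 over all genes. Without untreated replicate 3 the median was -0.27, and without RANKL replicate 3 it was -0.090. The widths of the 2 groups did not overlap for 5 members that were wider (background 14.5%) and 20 that were narrower (background 19.2%).

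The 3 members with the smallest unadjusted p for RANKL all belong to the ATP synthase. Atp5h, a stalk subunit, differed by -0.57 ± 0.23 (log2 difference ± SE, limma, unadjusted p = 0.0467, adjusted p = 0.819). Its centred values were 0.42 and 0.15 in untreated replicates 1 and 3 and -0.38 and -0.19 with RANKL. Atp5b differed by -0.65 ± 0.32 and Atp5j by -0.53 ± 0.24, with the same adjusted p in limma. All 3 were narrower relative to the rest of the library in both RANKL libraries, and none passed the adjustment. The Atp5b width of 2380 bp in untreated replicate 1 was not that of its start-site peak. Within 1 kb of the Atp5b start site the widths were 760 and 1789 bp in untreated replicates 1 and 3. With RANKL they were 1349 and 1842 bp, so in bp the start-site peak was not narrower. Start-site widths were not fitted. Over the alternative settings their adjusted p ranged from 0.0834 to 0.983. With each library left out in turn the difference ran from -0.70 to -0.44 for Atp5h, from -1.05 to -0.25 for Atp5b and from -0.77 to -0.29 for Atp5j. The smallest differences of Atp5b and Atp5j came without untreated replicate 1 and the largest without untreated replicate 3.

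**Figure D3:**
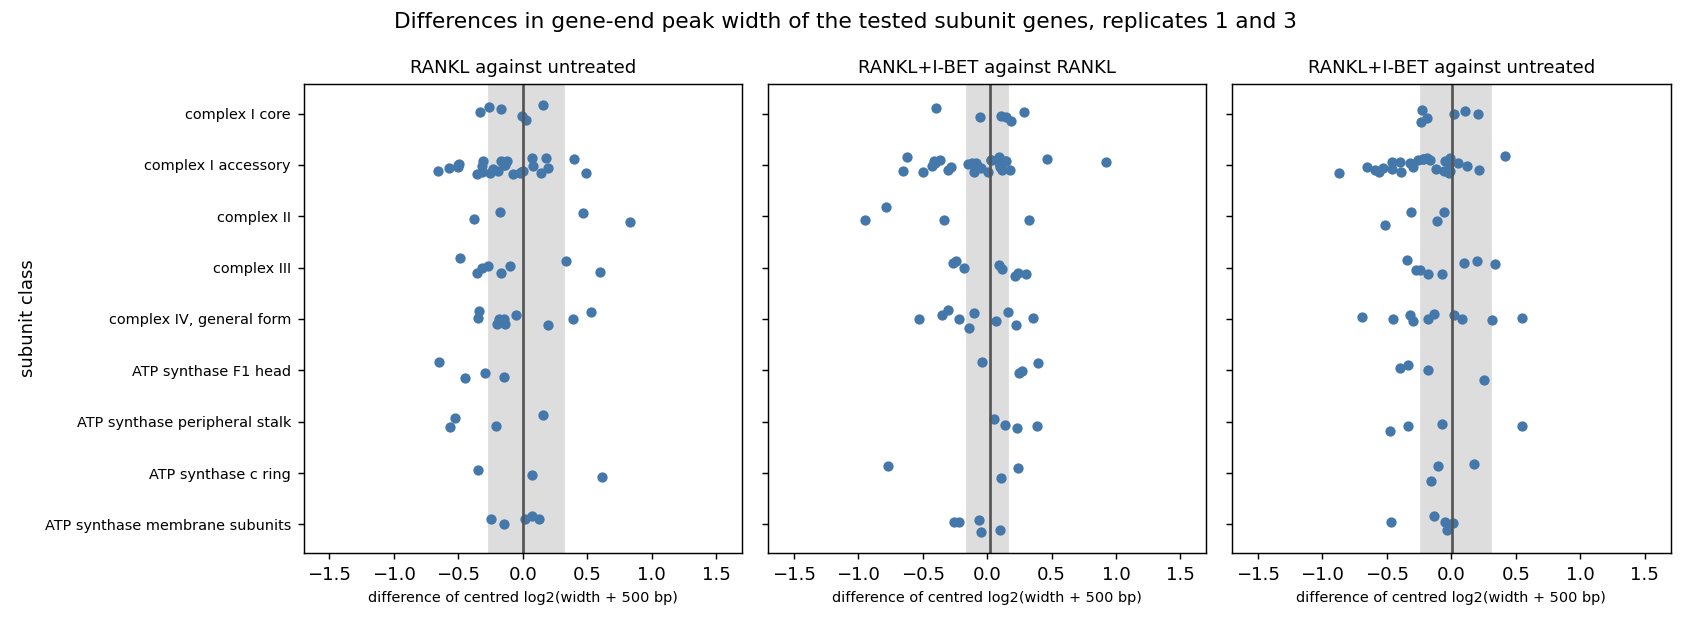
Difference in centred log2(width + 500 bp) between groups (horizontal axis) for the 71 tested subunit genes by class (vertical axis, points spread at random within a class), in replicates 1 and 3, with the grey band from the lower to the upper quartile of all 7740 tested genes and the dark line at their median. For RANKL against untreated 48 of 71 points lie below 0, for RANKL+I-BET against RANKL 35, and for RANKL+I-BET against untreated 53.

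With RANKL+I-BET against RANKL, limma again called 0 of 71 members and 0.0% of genes, with 39 genes wider and 80 narrower at an unadjusted p under 0.05. Relative to the library medians, 36 members were wider and 35 narrower, with a median of 0.0068 against 0.022 over all genes. Without centring 27 were wider and 44 narrower, with a median of -0.092 against -0.077. At equal covered length 20 were wider and 28 narrower (-0.19 against -0.0032), and over all 9 libraries 53 were wider and 22 narrower (0.34 against 0.11). The split of the members therefore changed with the setting. The widths of the groups lay apart for 13 wider members (background 20.3%) and 14 narrower ones (background 12.6%). Ndufa2 differed by 0.92 ± 0.36 (SE, limma, unadjusted p = 0.0361, adjusted p = 1.00), and its centred values were 0.54 and 1.00 with RANKL and 1.28 and 2.11 with RANKL+I-BET. Sdhc differed by -0.78 ± 0.33 and Atp5g2 by -0.77 ± 0.36, with the same adjusted p in limma. The Sdhc and Atp5g2 peaks, which were widest in the RANKL libraries, were narrower with the inhibitor in both replicates. With each library left out in turn the difference ran from 0.51 to 1.34 for Ndufa2, from -1.0 to -0.56 for Sdhc and from -1.22 to -0.32 for Atp5g2, with the extremes set by the RANKL+I-BET libraries. Atp5g2 changed sign to 1.69 when only peaks with a -log10 q of at least 5 were kept.

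With RANKL+I-BET against untreated, limma called 0 of 71 members and 0.0% of genes, with 174 genes wider and 90 narrower at an unadjusted p under 0.05 and no member among them. There were 18 wider and 53 narrower members, with a median of -0.17 against 0.0020 over all genes. Without centring the members' median was 0.14 and that of all genes 0.31, with 50 members wider and 21 narrower. The centred median was -0.036 without untreated replicate 1, with 28 members wider and 43 narrower, and -0.34 without untreated replicate 3. Groups lay apart for 2 wider members (background 14.1%) and 18 narrower ones (background 15.7%). Ndufa7 differed by -0.65 ± 0.30, Ndufb11 by -0.87 ± 0.42 and Sdha by -0.51 ± 0.25 (SE, limma, adjusted p = 0.868 each). With each library left out in turn these ran from -1.05 to -0.26 for Ndufa7, from -1.33 to -0.40 for Ndufb11 and from -0.57 to -0.46 for Sdha. Both comparisons with untreated cells use the same untreated libraries. Of these, untreated replicate 1 had the narrower peaks, with a library median of 10.28 for log2 of the width plus 500 bp before centring, against 10.75 in untreated replicate 3.

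I-BET alone is 1 library and was set beside untreated replicate 3 without a test. Ndufs5 (339 bp) and Cox7b (425 bp) held a peak with I-BET and none in untreated replicate 3, which makes 2 of 88 members against 1.67% of genes. Sdhc (602 bp) and Ndufab1 (468 bp) held one in untreated replicate 3 and none with I-BET, against 4.56% of genes. Of the 68 members held by both, Ndufb10 was at least 2-fold wider with I-BET, at 2494 against 833 bp (4.64% of genes). These are not the same peak. Within 1 kb of the Ndufb10 start site the widths were 1119 bp with I-BET and 833 bp in untreated replicate 3. With a 2 kb window the 1 member called wider was Atp5b instead (4.78% of genes). Ndufa4 (1479 to 704 bp), Uqcrb (554 to 265 bp) and Ndufa5 (775 to 380 bp) were at least 2-fold narrower (6.99% of genes). Cox6a1, at 396 and 790 bp, and Cox5b, at 556 and 1068 bp, came next to Ndufb10 among the wider ones. The median ratio of I-BET to untreated width was 0.961 for members and 0.977 for 7244 genes.

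Peaks of the subunit genes sat on and just downstream of the start site. Of 66 members with a single RefSeq start site, 74.2% were covered by a peak at 200 bp downstream of it in untreated replicate 1 and 84.8% at 150 bp downstream in replicate 3. These were the positions of highest coverage. With RANKL the highest coverage was 90.9% at 100 bp in replicate 1 and 92.4% at 150 bp in replicate 3, and with RANKL+I-BET 89.4% at 200 bp and 80.3% at 150 bp. At the same positions all genes reached 20.6% to 38.6% in these 6 libraries. In untreated replicate 3, where a peak covered the start site itself, it reached a median of 446 bp upstream and 701 bp downstream in 41 members. Over 3960 genes these distances were 595 and 705.5 bp. In that library 73.2% of the members' peaks reached farther downstream than upstream, against 59.9% over all genes, but in untreated replicate 1 the shares were 48.3% and 55.0%. The order of the 2 shares thus differed between libraries.

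**Figure D4:**
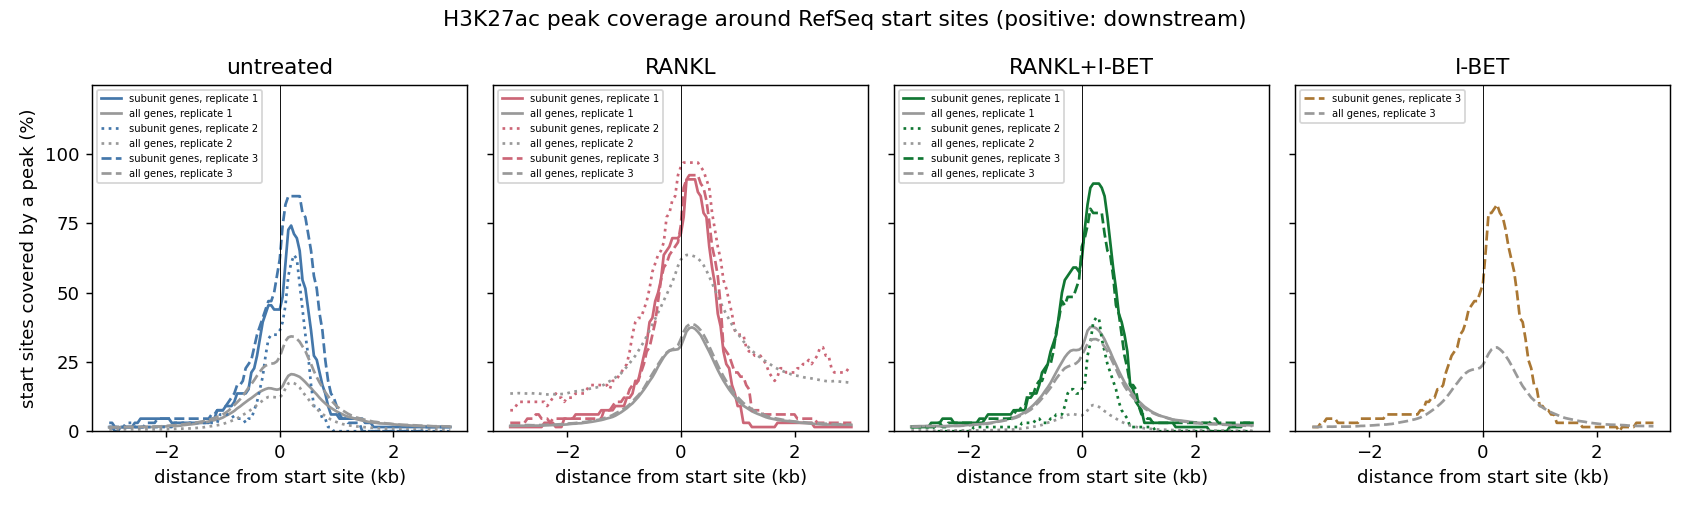
Share of RefSeq start sites covered by a peak (percent) against the distance from the start site in kb, positive downstream, for 66 subunit genes (coloured lines) and 14731 genes (grey lines), with 1 panel for each group and 1 line style for each replicate. Coverage of the subunit genes rises to between 74.2% and 92.4% just downstream of the start site in replicates 1 and 3 of the first 3 groups, and only RANKL replicate 2 keeps a raised level far from it.

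Many of these promoters are shared with a neighbouring gene. Within 1 kb of the start site of 20 of 71 members with a promoter record (28.2%) lay the start of a gene on the opposite strand that is read in the other direction, against 8.57% of 17492 genes. The 20 include Ndufs3, Ndufa1, Sdha, Sdhd, Uqcrh, Atp5c1, Atp5h, Atp5j and Atp5pb. In untreated replicate 3, 33 of 70 held members (47.1%) had their widest peak also at an end of another gene, against 34.4% of genes. Partners there included Eef1b2 for Ndufs1, Timm8b for Sdhd, Lrrc41 for Uqcrh, Mrpl36 for Ndufs6 and Mrpl47 for Ndufb5. Over the 10 lists the members' share ran from 45.2% to 54.1% and that of all genes from 30.7% to 37.1%. A width measured at such a promoter cannot be assigned to one of the 2 genes.

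The promoters of most general members held more CpG than those of the tissue-limited forms. The ratio of observed to expected CpG in the 300-base window had a median of 0.801 in 76 promoter records of 71 members, against 0.567 in 21263 records of protein-coding genes. Members other than tissue-limited forms and copies had a median of 0.828, with 0.368 (Cox7b) as the lowest. The 4 tissue-limited forms with a record had a median of 0.382, from 0.115 in Cox8b to 0.564 in Cox7b2. Ndufv3, at 0.782, and Ndufa1, at 1.05, lay within the range of the general members. Of the 71 members, 53 held a peak within 1 kb of a start site in all 6 libraries.

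**Figure D5:**
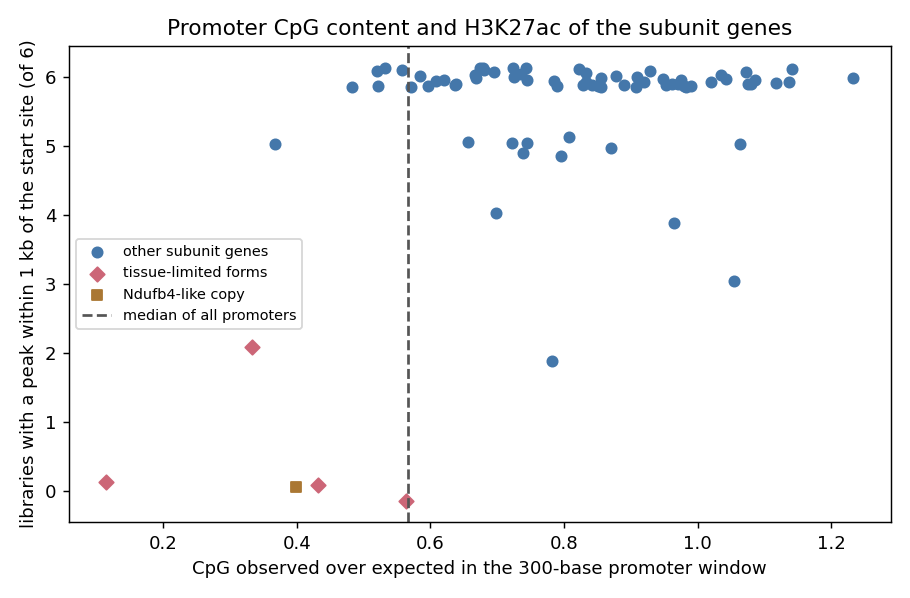
Number of the 6 libraries (replicates 1 and 3 of the 3 groups) with a peak within 1 kb of a RefSeq start site against the observed over expected CpG ratio of the promoter window, 1 point for each promoter record of a member, with points spread slightly in the vertical direction for legibility. The tissue-limited forms lie at 0 or 2 libraries and below the dashed median of all promoters (0.567), and most other members lie at 6.

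Among the motifs, the NRF1 motif GCATGCG was found in 14.5% of member promoters, for example those of Cox6a1, Uqcrc1, Sdhb and Atp5g2, against 4.44% of all promoters. The ETS motif CCGGAAG was found in 22.4% against 11.6%, as in Cox8a, Cox6b1, Ndufs3 and Sdhd. The YY1 motif AAGATGG was found in 14.5% against 6.24%, as in Ndufs7, Ndufs4 and Cox7c, and the receptor motif AAGGTCA in 10.5% against 4.08%, as in Atp5e and Ndufs5. The SP1 motif was found in 39.5% against 46.2% and the NF-Y motif in 40.8% against 38.2%. None of the 4 tissue-limited promoters held 1 of the first 4 motifs. The windows of Ndufv3 and Ndufa1 held none of them either.

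Genes that build or feed the complexes were also mostly marked. Of 40 assembly factors, 29 held a gene-end peak in all 6 libraries, and untreated libraries held 30, 21 and 35, RANKL libraries 38, 39 and 38, and RANKL+I-BET libraries 39, 15 and 38. Acad9, which is needed to assemble complex I, had no peak in the 3 untreated libraries, 1027, 1561 and 491 bp with RANKL, 1146, 0 and 429 bp with RANKL+I-BET, and 474 bp with I-BET. Uqcc3, a complex III assembly factor, likewise had none untreated, 546, 1806 and 693 bp with RANKL, 383, 0 and 513 bp with RANKL+I-BET, and 625 bp with I-BET. Both genes, like Hccs below, were named after their values were seen. For Acad9 and Uqcc3, RANKL replicates 1 and 3 and RANKL+I-BET replicates 1 and 3 were separate from the untreated libraries. By the gain rule given above, the share of all genes was 1.8% with RANKL and 0.731% with RANKL+I-BET. Ndufaf6, also named after its values were seen, shared the pattern, with 226, 813 and 358 bp with RANKL and 247, 0 and 434 bp with RANKL+I-BET.

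Of 8 carriers of electrons and related enzymes, 7 held a peak in all 6 libraries. Cycs, which encodes cytochrome c, had 1280, 990 and 1295 bp untreated, 1584, 1318 and 1881 bp with RANKL, and 1505, 601 and 1569 bp with RANKL+I-BET. The exception, Hccs, which attaches haem to cytochrome c, had no peak untreated or with I-BET, 543, 1503 and 1014 bp with RANKL, and 444, 0 and 361 bp with RANKL+I-BET. In width, limma called 0 of 33 tested assembly factors and 0 of 7 tested carriers in each of the 3 comparisons. With RANKL against untreated their median differences were -0.18 and -0.32 on the centred log2 scale.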

How the data were processed

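H3K27ac was measured in 10 immunoprecipitated libraries of RAW264.7 cells, grouped and numbered as labelled. FastQC, Bowtie2, MACS2 and the build GRCm38 (mm10) are named in the submitters' processing notes. Versions, settings and the use of the inputs are not given in the sources used here. Each list was deposited in broad-peak format. The authors' score, the deposited fold enrichment (a linear ratio over local background) and the deposited -log10 p and -log10 q of each peak served to describe, rank and filter the peaks of 1 list and for nothing else.

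From these lists, the widest peak within 1 kb of either end of each of 21887 protein-coding genes was taken. Widths were analysed as log2(width + 500 bp), centred on library medians, for genes with a mean of at least 500 bp. limma 3.58.1 in R 4.3.3 fitted replicates 1 and 3 of the 3 groups together with a trended prior, with Benjamini-Hochberg adjustment over all 7740 genes. The code was tested on simulated data. Start sites and promoter windows came from RefSeq GRCm38.p6, which matched 71 of 88 members.

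Members, gene lists, marker lists and tests were chosen with earlier results of these data known. Named genes were the members not held in all 9 libraries, the widest and narrowest in untreated cells, isoform pairs, a fixed set of subunits, the 3 smallest p-values of each comparison and the 3 largest I-BET ratios each way. Members missing from 1 or 2 lists are partly given by range or by name only, and 1 member that the rule names is not reported here, although it stays in the counts. Alternatives tried were other windows, a -log10 q of at least 5, equal covered length, all replicates, each library left out, other pseudocounts, filters, centring and summed widths, and a replicate block. Over the 9 libraries, 6 of 9 same-numbered pairs correlated above 0.1, so the block stayed an alternative.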

Additional observations from a re-analysis of the deposited data

How the results depend on the processing

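A stricter peak threshold and an equal covered length changed the counts most. With a -log10 q of at least 5, members held fell to 4, 0 and 15 untreated, 25, 35 and 24 with RANKL, 23, 5 and 13 with RANKL+I-BET, and 12 with I-BET. The share over all genes at that threshold was not counted. With each list reduced to the covered length of the shortest, members held were 14, 23 and 15, then 13, 1 and 10, then 15, 42 and 10, and 14. All genes stood at 7.68%, 11.8% and 7.58%, then 6.93%, 1.74% and 6.28%, then 6.74%, 17.3% and 6.88%, and 6.67%. In RANKL replicate 2 the members' share of 1.14% was thus below that of all genes, and it was above in the other lists. These held counts used all 10 lists at 3.44 Mb. The gains, losses and width fits given at equal length used another cut. There the 6 lists numbered 1 or 3 of the 3 groups were reduced to 16.05 Mb. Members gained with RANKL against untreated numbered 6 at the stricter threshold (3.51% of all genes) and 1 at equal length (1.14%), and members lost 1 (0.105%) and 10 (3.16%). The 1 member gained at equal length was Atp5k, so Ndufv3 and Ndufa1 were not gained in either setting. For RANKL+I-BET against RANKL, gains numbered 2 (0.959%) and 4 (2.18%) and losses 9 (2.37%) and 3 (1.59%). For RANKL+I-BET against untreated, gains numbered 3 (1.97%) and 1 (0.969%), and losses at equal length 4 (2.21%). For I-BET at the stricter threshold, 8 members were held by I-BET alone (4.05% of genes), 11 by untreated replicate 3 alone (6.48%), and 0 of 4 were narrower (11.6% of 311 genes). Leaving out each library in turn gave 2 to 5 gains with RANKL and 1 to 4 losses with RANKL+I-BET against RANKL. For RANKL+I-BET against untreated it gave 0 to 3 gains. The 3 came without untreated replicate 3 (Ndufa10, Uqcr11 and Ndufs6, against 0.370% of genes). All other gains and losses remained 0 in number. The cause was not tested.

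No setting called a member by limma. A 500 bp window called 1 gene with RANKL and 1 with RANKL+I-BET against untreated, and the stricter threshold called 46 genes with RANKL+I-BET against RANKL, where Atp5g2 reversed to 1.69. Leaving out each library gave 0 to 0 genes, with the lone library of a group assumed to vary like the others. For RANKL the members' median was -0.82 at the stricter threshold (all genes -0.70, 11 members tested) and 0.25 without centring (all genes 0.41). For RANKL+I-BET against RANKL it was 1.8 at the stricter threshold (all genes 1.67) and 0.34 over all 9 libraries (all genes 0.11). With the replicate block 0 members and 0 genes were called in each comparison. Correlations of same-numbered libraries ran from 0.0724 to 0.340 over the 9 libraries, with 6 of 9 pairs over 0.1, although each library correlated best with its own number. Over the 6 fitted libraries they were 0.148, 0.163 and 0.204, where 2 numbers make the pairs mirror each other. Start-site and whole-gene windows were added after seeing the data. Unknown depth limits all counts: a missing peak may be a missing call.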

Other observations

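Glycolysis enzymes, the other main source of ATP in these cells, were also mostly marked. Of 15 genes, 13 held a gene-end peak in all 6 libraries numbered 1 or 3, and the exceptions, Hk1 and Ldha, had one in RANKL replicate 2 only, of 381 and 6276 bp. Only gene ends were used for these enzymes, a window that missed the marked promoters of Cox5a and Cox7a2. Absence at the ends of Hk1 and Ldha therefore does not show an unmarked promoter. Pkm, which makes pyruvate kinase, had 826, 158 and 8671 bp untreated, 9044, 2862 and 9364 bp with RANKL, 5609, 1323 and 9158 bp with RANKL+I-BET, and 8833 bp with I-BET. Pgk1 had 141, 0 and 2387 bp untreated, 3774, 2765 and 4382 bp with RANKL, 3351, 0 and 4459 bp with RANKL+I-BET, and 3164 bp with I-BET. For both genes the untreated libraries ranged widely. Outside the libraries numbered 2, both untreated values of Pgk1 lay below the treated ones, while Pkm in untreated replicate 3 lay within their range. In width, limma called 0 of 13 tested enzymes in each of the 3 comparisons, with median differences of 0.081 for RANKL against untreated, 0.035 for RANKL+I-BET against RANKL and -0.081 for RANKL+I-BET against untreated. Pkm and Pgk1 were named after their values were seen.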
